A study of Mus musculus with 4 samples.

Results

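Transcripts of 10 HSP70, HSP90 and co-chaperone genes were followed in B16F10 cells, a mouse melanoma line labelled as wild type. They are Hspa1a, Hspa1b, Hspa8, Hspa4, Hsph1, Hsp90aa1, Hsp90ab1, Hspb1, Bag3 and Hsf1. The genes were chosen by name, but with earlier results of these data known. All 10 of them were found among the 27179 genes of the count table. Cells were cultured in medium with serum and received either plain olive oil or ozonated olive oil at 0.01% for 6 h, with 2 libraries per group. Both groups therefore carried oil, and untreated cells were not analysed here. Nothing in the labels says that the libraries of a group came from separate cultures. The p-values thus reflect the spread between these libraries, which may be technical.

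HSP70 proteins bind unfolded stretches of other proteins and release them in a cycle driven by ATP. J-domain proteins speed up ATP use in that cycle, and nucleotide exchange factors such as the HSP110 proteins (Hsph1, Hspa4) and BAG proteins end it. HSP90 proteins act later, on nearly folded clients such as kinases and steroid receptors. In unstressed cells the factor HSF1 is held inactive, and when unfolded proteins accumulate it binds heat shock elements, alternating repeats of the letters GAA and TTC, and raises transcription of the inducible genes. Hspa1a, Hspa1b, Hsp90aa1, Hsph1, Hspb1 and Bag3 are usually counted as inducible, and Hspa8, Hsp90ab1 and Hspa4 as constitutive.

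The inducible HSP70 genes Hspa1a and Hspa1b lie side by side on chromosome 17 (34969359 to 34972156 and 34956429 to 34959238, GRCm38.p6, minus strand). They are shown first because their start regions are almost the same and because their reads cannot be fully separated. The last 150 bases before each RefSeq transcription start (GRCm38.p6) are printed below 5′ to 3′ on the gene's strand, together with those of 2 other inducible genes, Hspb1 and Bag3. They are chr17:34972157-34972306 on the minus strand, chr17:34959239-34959388 on the minus strand, chr5:135887769-135887918 on the plus strand and chr7:128523433-128523582 on the plus strand. Capitals mark matches to the paired heat shock element letters GAANNTTC or TTCNNGAA.
Hspa1a: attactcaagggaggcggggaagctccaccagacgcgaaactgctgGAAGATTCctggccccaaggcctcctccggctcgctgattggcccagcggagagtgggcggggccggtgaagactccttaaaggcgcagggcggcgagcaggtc
Hspa1b: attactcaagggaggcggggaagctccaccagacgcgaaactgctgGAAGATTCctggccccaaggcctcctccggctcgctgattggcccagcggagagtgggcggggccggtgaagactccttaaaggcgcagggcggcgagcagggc
Hspb1: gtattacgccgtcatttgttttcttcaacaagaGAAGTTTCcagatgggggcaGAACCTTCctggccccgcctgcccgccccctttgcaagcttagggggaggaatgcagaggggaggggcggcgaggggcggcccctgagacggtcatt
Bag3: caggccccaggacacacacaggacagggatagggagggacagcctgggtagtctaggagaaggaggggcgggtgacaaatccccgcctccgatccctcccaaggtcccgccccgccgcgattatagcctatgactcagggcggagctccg

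The Hspa1a and Hspa1b stretches were identical at 149 of 150 positions, and each held the match GAAGATTC from position -104 to -97, counted with -1 as the last base before the start. Hspb1 held 2 matches, GAAGTTTC and GAACCTTC. Hsph1, whose window is not printed, held TTCTCGAA, and no match was found in the 250 bases before the start of Bag3 or Hspa4. Start windows were matched for 6 of the 10 genes, and Hspa8, Hsp90aa1, Hsp90ab1 and Hsf1 are named only. Among all 32851 RefSeq start windows, 6.69% held GAANNTTC and 7.17% held TTCNNGAA in the same 250 bases, and 12.8% held either. Both strands were searched, and each motif is its own reverse complement. A run of 3 alternating units, GAANNTTCNNGAA or its reverse complement, contains both shorter motifs. It was in 0.466% of windows and in none of the 6 genes' windows. These matches describe letters in a window and were not tested as binding sites.

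Total counts ran from 22539486 to 30038784 per library, the highest being that of ozonated oil library 2. Libraries of a group differed by more than counting noise (chi-square per degree of freedom of 37.0 and 120.4). Values below are CPM, counts per 1000000 reads on scaled library sizes. The melanocyte markers Mitf, Tyr, Tyrp1, Dct, Pmel, Mlana and Sox10 were all present, at 19541 and 24694 CPM in sum with plain oil and 21864 and 26048 CPM with ozonated oil. Within that sum Mitf, the melanocyte regulator, was at 692 and 614 CPM with plain oil and at 354 and 253 CPM with ozonated oil. Sox10, another lineage factor, was at 536 and 564 CPM against 456 and 450 CPM. The groups of both genes did not overlap, as for 20% of all tested genes in the lower direction. The other melanocyte markers overlapped between groups. Tyr was at 574 and 494 CPM against 628 and 438 CPM, and Tyrp1 at 7027 and 7872 CPM against 7950 and 6587 CPM. Dct was at 6250 and 8272 CPM against 6973 and 9687 CPM, and Pmel at 3526 and 5755 CPM against 4624 and 7356 CPM. Mlana was at 937 and 1122 CPM against 878 and 1278 CPM. The part of the lower Mitf and Sox10 values in the results below was not tested. Of the immune markers Ptprc, Cd3e and Adgre1, only Ptprc had reads, at 0.0840 CPM in 1 library. The keratinocyte markers Krt5, Krt14, Krt1 and Krt10 summed to 24.4 and 3.44 CPM with plain oil and to 0.921 and 19.1 CPM with ozonated oil, so they varied within both groups. Summed fibroblast markers ran from 5.83 to 8.18 CPM, and summed endothelial markers from 0.0424 to 0.263 CPM. Fewer transcribing cells and less RNA per cell cannot be told apart in bulk libraries.

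Across the set, the inducible HSP70 pair had the largest fold difference, at 5.07-fold the plain oil level. Bag3 at 1.78-fold and the constitutive Hspa8 at 1.53-fold were the other genes with an unadjusted p below 0.05. Hsp90aa1 and Hsp90ab1 had values of 1.27-fold and 1.23-fold, and the HSP110 gene Hspa4 and the regulator gene Hsf1 of 0.797-fold and 0.813-fold. Low-count filtering left 9 of the 10 genes for testing, without Hspa1a. None of the 9 passed the edgeR quasi-likelihood test after Benjamini-Hochberg adjustment over all 12675 genes tested, where 0% of genes were called. At an unadjusted p below 0.05 in the same test, 3 of the 9 were higher (Hspa1b, Bag3 and Hspa8) against 4.54% of all tested genes, and 0 were lower against 5.29%. Fewer of the 9 were higher at that p when either plain oil library was left out. As many were higher when either ozonated oil library was left out, and the share of all genes at that p also changed. Without ozonated oil library 1, Hsf1 was below that p too, in the lower direction (log2 change -0.44). Each of these fits left 1 library in a group. For 5 of the 9 genes the lower ozonated oil value exceeded the higher plain oil value (19.9% of all tested genes), and 2 of the 9 had the reverse order (20% of all tested genes). DESeq2 called Hspa1b and Bag3, and 2.25% of the 12183 genes to which it gave an adjusted p.

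**Figure D1:**
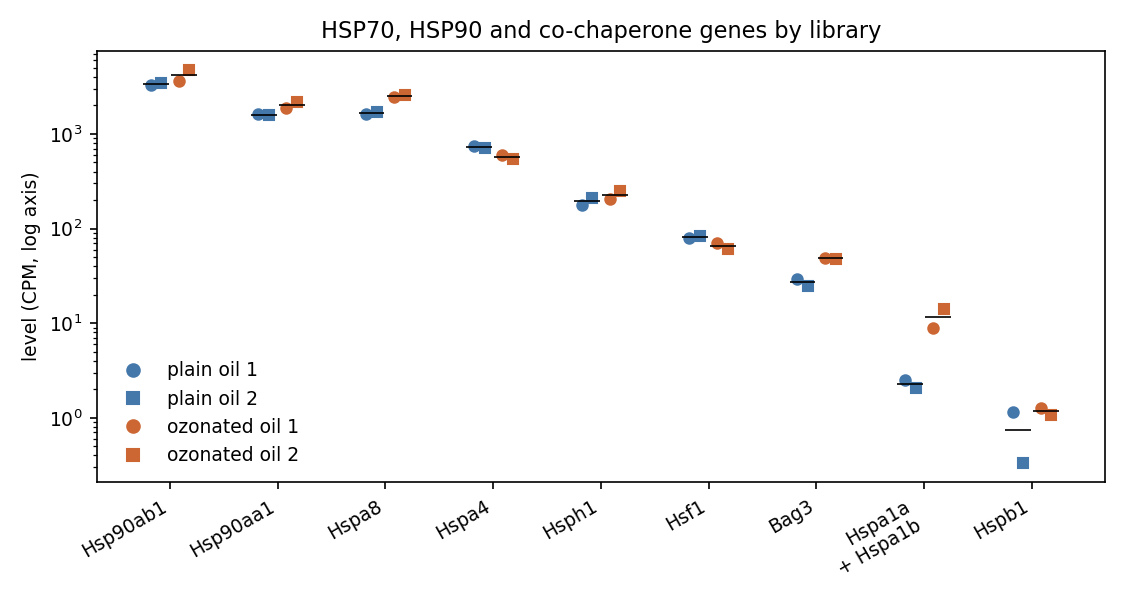
CPM of each gene in each library on a log axis, with black lines at the group means (n = 2 per group) and Hspa1a and Hspa1b summed. The summed pair lies near 2 CPM with plain oil and at 8.86 and 14.3 CPM with ozonated oil, far below Hspa8 in every library.

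The inducible HSP70 pair was the most different. Hspa1b had 54 and 49 counts with plain oil, and 200 and 392 counts with ozonated oil. Its level was 2.29 and 2.06 CPM with plain oil against 8.77 and 14.0 CPM with ozonated oil. Both ozonated oil libraries were above both plain oil libraries, and the second ozonated oil library was the highest. The group means were 2.17 ± 0.163 and 11.4 ± 3.68 CPM (SD, n = 2 per group), which is a log2 change of 2.39 (standard error 0.35, edgeR adjusted p = 0.178). By the size of the log2 change Hspa1b stood 17th from the top of the 12675 genes tested. Without ozonated oil library 1 it passed the same test, with a log2 change of 2.65 and edgeR adjusted p = 0.0264, where 2.97% of all genes were called.

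Hspa1a had 5 and 0 counts with plain oil and 2 and 8 counts with ozonated oil. These are at or near the floor of 3 counts, which stands for 0.107 to 0.132 CPM depending on the library, so no fold is given. Of the 2918 windows of 50 bases in the Hspa1a transcript, 1716 occur letter for letter in the Hspa1b transcript. Counting every annotated gene, 983 windows of Hspa1a and 1038 of Hspa1b occur in no other gene. Hspa1a also shares 564 exon bases with Gm20481, which is annotated on the opposite strand. How the authors counted reads with several matches is not given here, so the split of reads between both copies is uncertain.

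Read together, Hspa1a and Hspa1b had 59 and 49 counts with plain oil and 202 and 400 counts with ozonated oil. This was 2.50 and 2.06 CPM against 8.86 and 14.3 CPM, and the groups did not overlap. When the rows were replaced by their sum, the log2 change was 2.34 or 5.07-fold (standard error 0.36, edgeR adjusted p = 0.183). With 1 library left out the log2 change ran from 1.95 to 2.61, and the sum passed the test without ozonated oil library 1 (edgeR adjusted p = 0.0269).

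Hspa8, the constitutive cytosolic HSP70 (chromosome 9, 40801276 to 40805202), was already abundant with plain oil. It was at 1606 and 1691 CPM with plain oil and at 2448 and 2600 CPM with ozonated oil. The groups did not overlap, and the libraries within a group lay close together. Group means were 1649 ± 59.6 and 2524 ± 107 CPM (SD, n = 2 per group), which is a log2 change of 0.61 (standard error 0.23, 1.53-fold, edgeR unadjusted p = 0.0342, adjusted p = 0.465). Leaving out 1 library at a time gave log2 changes from 0.56 to 0.66. Of its 50-base windows 74.8% also occur in transcripts of other annotated genes, 13 in all. Exons pooled over all its annotated transcripts overlap the small nucleolar RNA genes Snord14c, Snord14d and Snord14e. These pooled exons span 4301 bases, against 2394 in the longest protein-coding transcript, so the overlap need not lie in that transcript.

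The HSP110 genes, distant HSP70 relatives that exchange nucleotide on HSP70, had values on opposite sides. Hspa4 (chromosome 11, 53259814 to 53300479) was at 741 and 703 CPM with plain oil and at 604 and 547 CPM with ozonated oil. Both ozonated oil libraries were below both plain oil libraries, with a log2 change of -0.33 (standard error 0.20, edgeR adjusted p = 0.686). Hsph1, the inducible HSP110 (chromosome 5, 149616843 to 149636498), was at 177 and 213 CPM against 207 and 246 CPM. Its groups overlapped, and the log2 change of 0.22 had a standard error of 0.20 (edgeR adjusted p = 0.802). That change was 0.36 without plain oil library 2. It was 0.091 when plain oil library 1 was left out, and 0.077 when the second ozonated oil library was. No 50-base window of Hspa4 or Hsph1 occurs in another annotated gene.

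Both cytosolic HSP90 genes had higher values with ozonated oil, by amounts not far above their standard errors, least so for Hsp90ab1. Hsp90aa1, the inducible form (chromosome 12, 110691036 to 110696395), was at 1613 and 1578 CPM with plain oil and at 1878 and 2181 CPM with ozonated oil. Its log2 change was 0.35 (standard error 0.23, edgeR adjusted p = 0.718), although the groups did not overlap, and it was 0.23 without ozonated oil library 2. Hsp90ab1, the constitutive form (chromosome 17, 45567778 to 45573261), was the most abundant of the 10 genes in CPM, at 3291 and 3462 CPM against 3642 and 4686 CPM. The second ozonated oil library stood well above the other libraries. Its log2 change was 0.30 (standard error 0.26, edgeR adjusted p = 0.790), and 0.10 without ozonated oil library 2. Of 50-base windows, 58.5% of those of Hsp90aa1 and 4.49% of those of Hsp90ab1 occur in other annotated genes.

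Bag3, which links HSP70 to small heat shock proteins and to selective autophagy (chromosome 7, 128523583 to 128546981), had the smallest p after Hspa1b. It was at 29.2 and 24.9 CPM with plain oil and at 49.3 and 47.2 CPM with ozonated oil. The groups were well separated, with means of 27.1 ± 3.04 and 48.3 ± 1.51 CPM (SD, n = 2 per group). The log2 change was 0.83 (standard error 0.19, 1.78-fold, edgeR unadjusted p = 0.00392, adjusted p = 0.261), and it ran from 0.73 to 0.95 with 1 library left out. No 50-base window of Bag3 occurs in another annotated gene.

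Hspb1, the small heat shock protein that holds unfolded proteins without using ATP (chromosome 5, 135887919 to 135889563), had few reads in every library. It had 27 and 8 counts with plain oil and 29 and 30 counts with ozonated oil, or 1.14 and 0.336 CPM against 1.27 and 1.07 CPM. Plain oil library 2 alone was low. The log2 change was 0.66 (standard error 0.68, edgeR adjusted p = 0.819), 0.034 without that library and 1.78 without plain oil library 1. Of its 50-base windows 51.6% occur in other annotated genes, among them the pseudogene Hsp25-ps1.

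Hsf1, the regulator itself (chromosome 15, 76477362 to 76501155), was at 78.6 and 82.9 CPM with plain oil and at 70.5 and 60.8 CPM with ozonated oil. Its values were thus lower in both ozonated oil libraries, with a log2 change of -0.30 (standard error 0.17, edgeR adjusted p = 0.660). As background, HSF1 activity is controlled largely at the protein level.

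**Figure D2:**
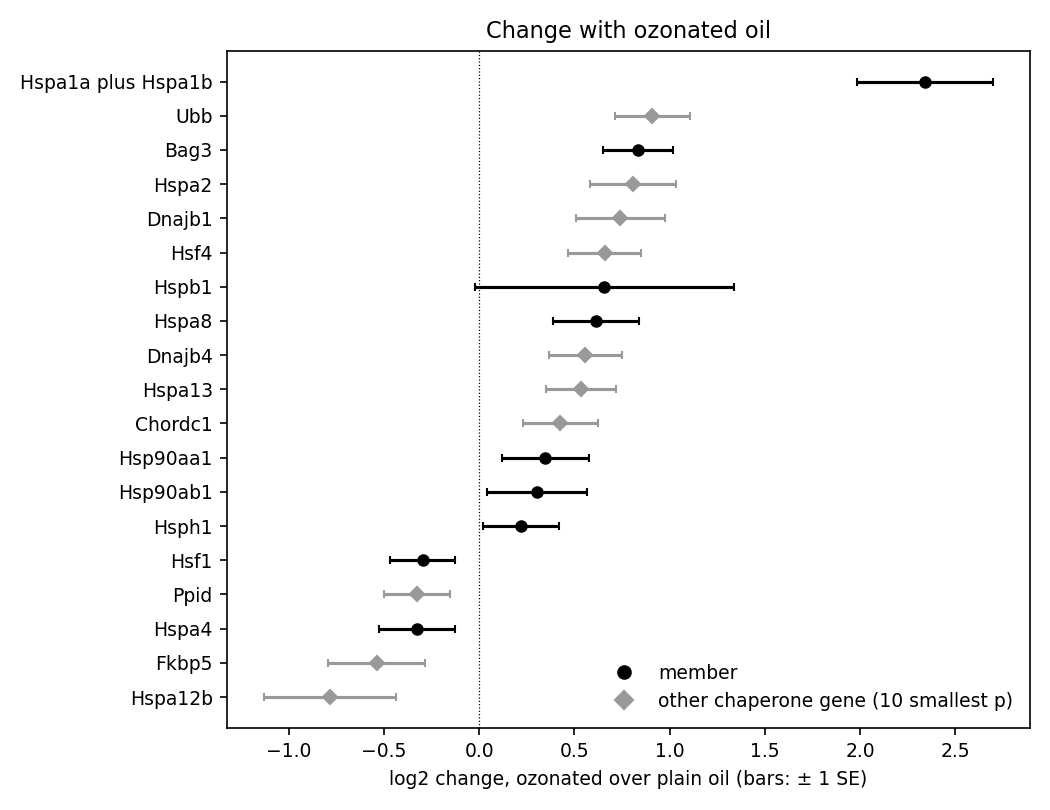
Log2 change with ozonated over plain oil and 1 standard error on each side, for the tested genes of the set (black, Hspa1a and Hspa1b summed) and for the 10 further chaperone genes with the smallest p (grey). The summed pair stands at 2.34, while Bag3 at 0.83 and Hspa8 at 0.61 lie among the grey points.

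Leaving out each library in turn kept the sign of all 9 tested genes, as did the other alternatives run, in 81 of 81 refitted values. That was largely set beforehand. Of the 9 genes, 5 were higher and 2 lower without overlap between groups, so leaving out a library could hardly turn their sign. Only Hsph1 and Hspb1 had overlapping groups. The alternatives that kept every library refitted the same counts. The spread of the refitted values differed by gene. It was narrow for Hspa8 and Bag3 and wide for Hspb1.

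**Figure D3:**
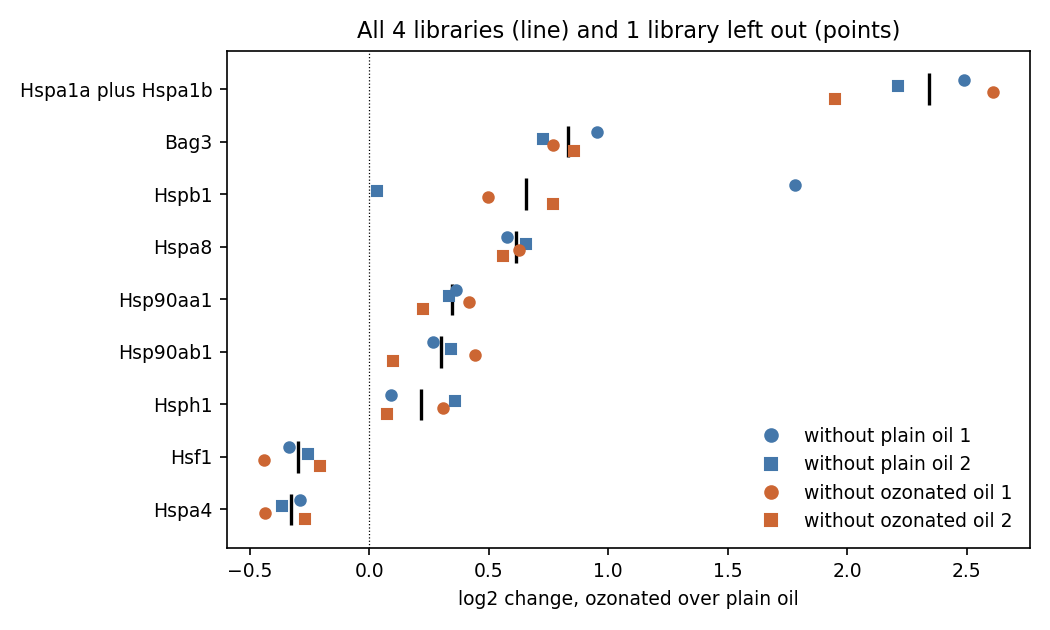
Log2 change of each gene with all 4 libraries (black line) and with 1 library left out (points, coloured by the group of the library left out). Points for Hspb1 run from 0.034 to 1.78, those for the summed Hspa1a and Hspa1b from 1.95 to 2.61, and none crosses 0.

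Inducible and constitutive forms were compared within each library as a ratio of reads per kilobase of the longest annotated protein-coding transcript, which does not depend on library scaling. For genes that share sequence with others, the level of a ratio does depend on how reads with several matches were counted. That handling is not given here, so the percentages of the HSP70 and HSP90 ratios are uncertain. Hspa1a plus Hspa1b stood at 0.129% and 0.101% of Hspa8 per kilobase with plain oil and at 0.300% and 0.455% with ozonated oil. The ratio was thus higher in both ozonated oil libraries, although the inducible pair stayed under 1% of Hspa8 in all of them. The log2 ratio differed by 1.69, or 3.24-fold, with within-group SDs of 0.25 and 0.42. An exact two-sided permutation test over the 4 libraries gave p = 0.33, the smallest p that this design allows.

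Hsp90aa1 stood at 37.6% and 35.0% of Hsp90ab1 per kilobase with plain oil and at 39.6% and 35.7% with ozonated oil. The groups overlapped, and the log2 ratio differed by 0.052, less than the within-group SDs of 0.074 and 0.10 (exact two-sided permutation p = 0.667). Without plain oil library 2 or without ozonated oil library 1 the sign of that difference turned. Hsph1 stood at 29.0% and 36.8% of Hspa4 with plain oil and at 41.6% and 54.7% with ozonated oil. Its log2 ratio differed by 0.55, with within-group SDs of 0.24 and 0.28, and the groups did not overlap (exact two-sided permutation p = 0.33). The difference was 0.35 when ozonated oil library 2 was left out and 0.75 when the first was. These 3 ratios formed 1 family, and with a floor of 0.33 none could pass a threshold of 0.05 before or after adjustment.

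**Figure D4:**
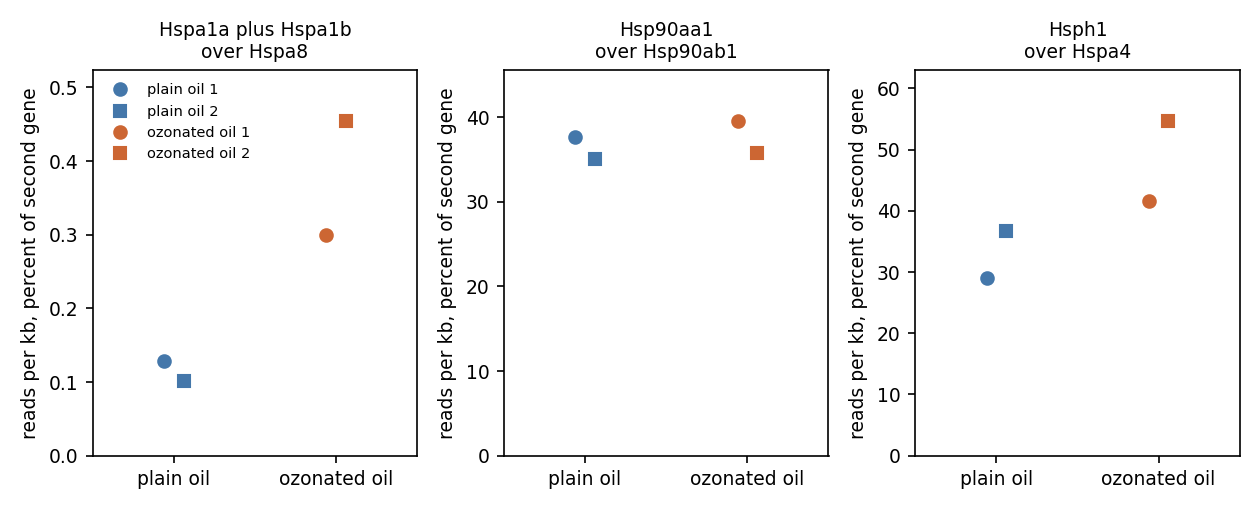
Reads per kilobase of the first gene as a percent of the second in each library, with axes that start at 0 and differ between panels. The inducible HSP70 pair and Hsph1 have higher shares in both ozonated oil libraries, while the shares of Hsp90aa1 overlap between groups.

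In absolute terms the order of the genes was different from that by fold. All 10 genes together took 7540 and 7756 CPM with plain oil and 8908 and 10382 CPM with ozonated oil, a difference of group means of 1997 CPM. Hspa8 contributed 875 CPM of it, or 43.8%, and Hsp90ab1 and Hsp90aa1 contributed 787 and 434 CPM. The summed Hspa1a and Hspa1b contributed 9.28 CPM, or 0.465%. The shares and their order rested on single libraries. Without ozonated oil library 1 the total was 2734 CPM, and Hsp90ab1 contributed 1309 CPM against 951 CPM for Hspa8. Without ozonated oil library 2 the total was 1261 CPM, of which Hspa8 made up 63.4% and Hsp90ab1 265 CPM. Hspa4 was lower by a difference of -147 CPM. These differences are in reads and were not tested as contributions. Both HSP90 genes summed had an SD of 952 CPM between the ozonated oil libraries (n = 2).

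**Figure D5:**
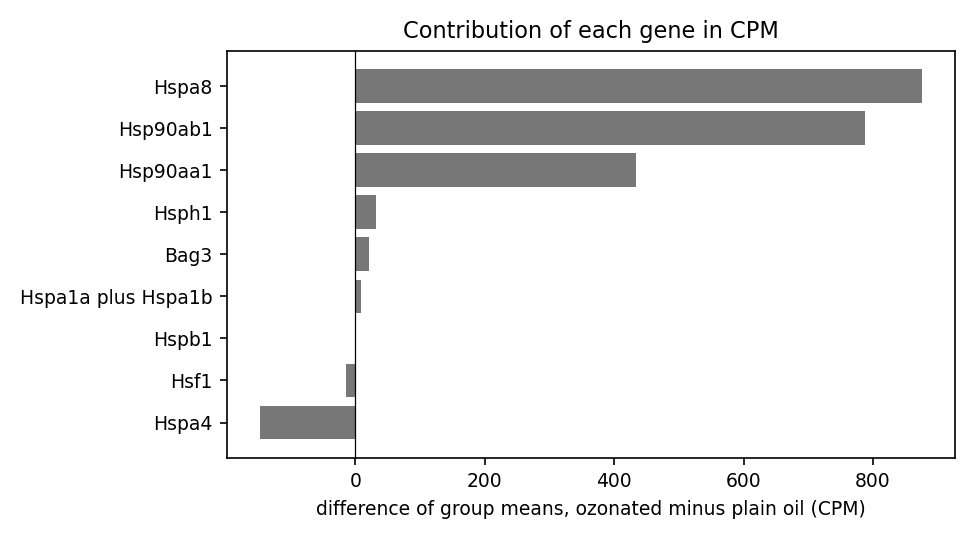
Difference of group means in CPM for each gene, ozonated minus plain oil, with 2 libraries per group, on an axis through 0. Hspa8 and Hsp90ab1 carry the longest bars, 875 and 787 CPM, in an order that turns without ozonated oil library 1, and the bar of the summed Hspa1a and Hspa1b is 9.28 CPM.

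Levels with plain oil were ordered in CPM per kilobase, as mean ± SD with n = 2. Hsp90ab1 was highest at 1340 ± 48.1 CPM per kilobase, followed by Hspa8 at 689 ± 24.9 and Hsp90aa1 at 486 ± 7.53. These genes differ in the share of sequence windows that also occur in other annotated genes. It was 74.8% for Hspa8 and 58.5% for Hsp90aa1, against 4.49% for Hsp90ab1. How reads with several matches were counted is not given here, so the order of these genes is uncertain. The HSP110 genes came next, Hspa4 at 156 ± 5.89 and Hsph1 at 51.2 ± 6.63 CPM per kilobase, and then Hsf1 at 38.4 ± 1.46 and Bag3 at 10.6 ± 1.19. At the low end stood Hspb1 at 0.796 ± 0.614, Hspa1b at 0.775 ± 0.0582 and Hspa1a at 0.0357 ± 0.0505 CPM per kilobase. Hspb1 and Hspa1b, neighbours in that order, lay within the spread of Hspb1. With ozonated oil Hspa1b was at 4.06 ± 1.31 CPM per kilobase and stood above Hspb1, at 1.26 ± 0.154.

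A wider list of 57 chaperone, co-chaperone and HSF genes was followed beside the set. The table held 56 of them and 49 were tested, of which 33 had a higher and 16 a lower value with ozonated oil. The median log2 change of the list was 0.12, against 0.035 over all tested genes, where 54.0% had a higher value. None passed after adjustment over all genes (edgeR). At an unadjusted p below 0.05, 6 of 49 were higher, or 12.2%, and 0 were lower, beside 4.54% and 5.29% of all tested genes. Dropping plain oil library 1 left 2 such higher genes, or 3.92% of the list, beside 1.82% of all genes then tested. Dropping plain oil library 2 left 1, or 1.96% beside 2.3%. Dropping ozonated oil library 1 gave 10 higher and 1 lower, or 20.4% and 2.04%, beside 10.8% and 13.3% of all genes then tested. Dropping ozonated oil library 2 also put some list genes below that p in the lower direction, and the median log2 change of the list was then 0.076. Both ozonated oil libraries were above both plain oil libraries for 15 of the 49, or 30.6%, and below them for 5, or 10.2%, beside 19.9% and 20% of all tested genes.

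Those 6 genes belong to several branches of the system. Ubb, a polyubiquitin gene with a repeated coding sequence, was at 218 and 207 CPM with plain oil and at 360 and 438 CPM with ozonated oil (log2 change 0.91, edgeR adjusted p = 0.254). Without ozonated oil library 1 it passed the same test (edgeR adjusted p = 0.0425). The J-domain partners of HSP70, Dnajb1 and Dnajb4, had log2 changes of 0.74 and 0.56. Dnajb1 was at 53.0 and 70.0 CPM with plain oil and at 87.2 and 118 CPM with ozonated oil. Hspa2, an HSP70 best known from testis, had a log2 change of 0.81, Hspa13, an HSP70 relative of the endoplasmic reticulum, one of 0.53, and Hsf4, a factor best known from the lens, one of 0.66. In each of the 6 genes the groups did not overlap, which largely follows from picking them by p in these same libraries.

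Among HSP90 partners with the next smallest p-values, none was below 0.05 before adjustment. Chordc1 was at 74.9 and 78.4 CPM with plain oil and at 89.0 and 117 CPM with ozonated oil, a log2 change of 0.43 that was 0.21 without ozonated oil library 2. The peptidyl-prolyl isomerases Fkbp5 and Ppid, which bind HSP90 in steroid receptor complexes, had log2 changes of -0.54 and -0.33. Fkbp5 was at 83.0 and 70.7 CPM against 64.9 and 41.1 CPM, and the groups did not overlap. Its log2 change was -0.94 without ozonated oil library 1, where it passed (edgeR adjusted p = 0.0486), and -0.25 without ozonated oil library 2 (edgeR adjusted p = 0.597). Hspa12b, a distant HSP70 relative, had a log2 change of -0.79 at 2.89 to 6.10 CPM.

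Across the 4 libraries, the log2 level of Hspa8 had a Pearson r of 0.98 with that of the summed Hspa1a and Hspa1b. The r was 0.98 for Hsp90aa1, 0.96 for Bag3, 0.85 for Hsp90ab1, 0.69 for Hsph1 and 0.61 for Hspb1, and -0.97 for Hspa4 and for Hsf1. The pair differed mostly between groups, so such an r largely restates whether the groups of a gene differ. Groups did not overlap for 19.9% of all tested genes in the higher direction and 20% in the lower. The share of all genes at r values like those of the members was not computed. Of 9998 genes with at least 5 CPM on average, the genes with the closest pattern were Lig4, Iba57, Pls3, Dusp10 and Atp6v0c, the lowest r of these being 0.9998 for Atp6v0c. Their log2 changes ran from 0.079 for Pls3 to 1.68 for Dusp10. With 4 libraries, 72 genes had an r above 0.99. These values describe libraries that differ in group and also in depth, the deepest being ozonated oil library 2.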

How the data were processed

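Per the labels, RNA was made into directional libraries, 2 with plain oil and 2 with ozonated oil. The deposited table gives raw, whole-number read counts per gene as the authors made them. The submitters' processing notes name HISAT2 2.1.0, StringTie 1.3.4d, SAMtools 1.9 and build mm10. The read counter, its annotation and strand setting, and how it handled reads with several matches, are not given here. Genes without a symbol, 1319 in all, held 0.197% to 0.218% of counts and stayed in the fit under their gene number.

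Counts were filtered with filterByExpr and scaled by TMM in edgeR 4.0.16 (R 4.3.3), and groups were compared with its two-sided quasi-likelihood F-test. All p-values adjusted for multiple testing cover all genes tested, with a threshold of 0.05. Standard errors come from the F statistic. Precision is limited by 2 libraries per group and, for Hspa1a, Hspa1b and Hspb1, also by low counts. Alternatives were median-of-ratios scaling, other filters, a block for replicate number, leaving out single libraries (the lone library being assumed to vary like the other group) and DESeq2 1.42.0. Positions and start windows came from RefSeq (GRCm38.p6, the assembly behind mm10), and transcripts, lengths and 50-base windows from GENCODE M21. Levels per kilobase use the longest protein-coding transcript.

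The 10 genes, the wider list and the tests were chosen with earlier results of these data known. Named beyond the 10 are the 10 list genes with the smallest p and the 5 genes closest in pattern to summed Hspa1a and Hspa1b at 5 CPM or more. Gm20481, Hsp25-ps1 and the Snord14 genes were named for shared sequence. A marker gene is not reported here.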

Additional observations from a re-analysis of the deposited data

How the results depend on the processing

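Of all 12675 genes, 0 were called by edgeR at an adjusted p below 0.05, and 1245 had an unadjusted p below 0.05. The called count stayed 0 with median-of-ratios size factors, with a filter of 1 CPM in 2 libraries and with Hspa1a and Hspa1b as 1 gene. It was 4 with no low-count filter, 274 with DESeq2 and 1 to 389 with 1 library left out, the highest being without ozonated oil library 1.

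With the replicate number as a block it was 1160. Same-numbered libraries deviated from their group means with a correlation of 0.45 over genes, but the labels do not say that a number pairs libraries. In the replicate block, Hspa1b, Bag3 and Hspa8 passed, and the sum of Hspa1a and Hspa1b had a log2 change of 2.31 and passed (adjusted p = 2.30e-06). With DESeq2 that sum was at 2.34 and passed, and with 1 library left out it ran from 1.95 to 2.61. In the wider list, genes at an unadjusted p below 0.05 in the block numbered 10 higher and 2 lower. These were 20.4% and 4.08% of the list, beside 9.59% and 11.2% of all genes. With no filter 1 was lower (1.89% beside 4.11%). With 1 library left out the median log2 change of the list ran from 0.076 to 0.20. Over all genes it then ran from -0.022 to 0.041. The ratio of Hspa1a plus Hspa1b over Hspa8 differed by 1.22 within pair 1 and 2.17 within pair 2, on the log2 scale. That of Hsp90aa1 over Hsp90ab1 ran from -0.022 to 0.13 with 1 library left out. The causes of these shifts were not tested. All 81 refitted member values and all 90 for the 10 named genes of the wider list had the sign reported. That was largely set beforehand, above all for the 10, which were picked by smallest p and whose groups did not overlap. Among them Ubb, Hspa2, Hsf4, Dnajb1, Dnajb4 and Fkbp5 passed in the replicate block, where 9.15% of all genes were called. Ubb also passed with DESeq2, where 2.25% were called.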
